A study of Mus musculus with 23 samples.

Results

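Type I interferon-stimulated genes are the genes that cells switch on when interferon alpha or beta binds its receptor. A list of 34 such genes was followed across the colon of mice with and without Fn14, with and without a chronic chemical colitis. Each gene was read from the probe set that is annotated to it alone and has the highest mean over all 23 arrays, which gave 32 measured members among 18194 measured genes. The probe set of Isg15 is shared with other genes in the annotation and was not used, and Ifi44 was not analysed here. The list was drawn up with results of these arrays in view, so the counts below describe these genes and no test of the list as a whole is given. The mean used to choose a probe set is taken over all groups together.

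All mice were BALB/c, and total colon RNA was hybridised to 1 array per sample. Wild-type colon came from 5 untreated and 6 TNBS samples, and Fn14 knockout colon from 5 untreated and 7 TNBS samples. The receptor for the cytokine TWEAK is Fn14, the product of Tnfrsf12a, and the labels do not say how the knockout was made or how old the mice were. TNBS is a hapten that provokes colitis when given rectally in ethanol: the labels' protocols give a 0.2% solution over 6 weeks, with the volume raised from 1 to 2 ul per g body weight, with tissue taken 3 days after the last dose. They do not say whether untreated mice received the solvent, so a TNBS effect covers the solvent and the handling too. Nor do they state that each sample is a separate mouse. The p-values therefore rest on sample-to-sample spread, which may be partly technical.

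As background, interferon alpha and beta act through the receptor chains Ifnar1 and Ifnar2 and the kinases Jak1 and Tyk2, which phosphorylate Stat2. With Irf9 it forms part of a complex, ISGF3, that binds the interferon-stimulated response element in the promoters of its targets. The products sense viral RNA, block translation, trap or degrade viral components, and restrain or amplify the pathway itself. In the intestine, low interferon signalling without overt infection keeps part of this set active, and interferon lambda acts on the epithelium through the same complex.

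The promoters of 5 members are printed to show the element where it is present and where it is not. Each line gives the 250 bases before the gene's start, 5′ to 3′ on the gene's strand, from RefSeq on build GRCm38.p6. The intervals are chr5:120777660-120777909 (minus strand) for Oas3, chr19:34583279-34583528 (plus strand) for Ifit3, chr19:34640639-34640888 (plus strand) for Ifit1, chr5:120907526-120907775 (minus strand) for Oas1a and chr5:114896684-114896933 (plus strand) for Oasl2. Capitals mark matches to the core of the element, written as GAAA, any 2 bases and GAAA, or its reverse complement, TTTC, any 2 bases and TTTC.
Oas3: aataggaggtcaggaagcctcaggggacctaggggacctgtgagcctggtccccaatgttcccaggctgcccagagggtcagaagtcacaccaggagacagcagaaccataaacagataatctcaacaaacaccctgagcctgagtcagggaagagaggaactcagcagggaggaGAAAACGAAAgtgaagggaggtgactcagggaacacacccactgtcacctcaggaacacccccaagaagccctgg
Ifit3: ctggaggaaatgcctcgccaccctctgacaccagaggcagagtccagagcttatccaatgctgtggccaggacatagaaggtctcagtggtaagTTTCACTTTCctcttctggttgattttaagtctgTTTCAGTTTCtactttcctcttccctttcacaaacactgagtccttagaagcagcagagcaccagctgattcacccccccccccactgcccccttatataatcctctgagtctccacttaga
Ifit1: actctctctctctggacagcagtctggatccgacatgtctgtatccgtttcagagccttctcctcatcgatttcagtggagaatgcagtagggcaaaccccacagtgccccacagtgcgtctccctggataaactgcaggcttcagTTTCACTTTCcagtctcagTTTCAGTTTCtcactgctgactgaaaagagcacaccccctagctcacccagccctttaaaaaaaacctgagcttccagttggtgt
Oas1a: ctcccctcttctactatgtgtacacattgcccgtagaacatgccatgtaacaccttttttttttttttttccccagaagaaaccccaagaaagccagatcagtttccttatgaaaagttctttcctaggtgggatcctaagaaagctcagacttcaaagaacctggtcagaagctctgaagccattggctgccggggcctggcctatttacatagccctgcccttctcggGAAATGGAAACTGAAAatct
Oasl2: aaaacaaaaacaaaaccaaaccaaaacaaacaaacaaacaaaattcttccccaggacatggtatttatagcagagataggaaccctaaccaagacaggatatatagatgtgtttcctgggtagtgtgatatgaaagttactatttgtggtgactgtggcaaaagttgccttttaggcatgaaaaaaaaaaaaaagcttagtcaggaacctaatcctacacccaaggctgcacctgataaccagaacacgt

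Oas3 holds 1 match, which starts 75 bases before the gene's start. Ifit3 has matches starting 156 and 122 bases before its start, and Ifit1, also on chromosome 19, has them at 104 and 85 bases. In Oas1a the matches begin 20 and 14 bases before the start and overlap each other. Oasl2, which had the smallest adjusted p of the members between the untreated genotypes, has no match in this window. Of the listed genes, 25 had a window in the RefSeq table, from 250 bases before to 50 after the start. The core was held on either strand by 11 of these (44.0%), against 1079 of 27025 genes (3.99%). The 25 include Isg15, which held it, and Ifi44, which did not, although neither was measured here. Usp18, Oas2, Zbp1, Dhx58, Rtp4, Mx1, Mx2, Parp9 and Parp14 had no window in the table. A match is a description of the letters and not of binding, and other spacings of the element were not searched.

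The labels held against the targeted gene: Tnfrsf12a read 5.86 to 7.16 in untreated wild type, 6.77 to 8.25 with TNBS, and 3.84 to 4.17 on all knockout arrays. Arrays of a group correlated with each other at r = 0.989 to 0.998 over all genes, and no pair held identical values. Colon epithelium markers (Epcam, keratins, Cdx1, Cdx2 and others, 11 genes) averaged 13.17 to 13.34 on every array, so the defining markers of the labelled tissue were present. All levels are log2 values as deposited, where a step of 1 is a doubling. The lowest value a probe set can take is 2.17, and folds of genes near it are understated. Levels are compared for the same gene across arrays and not between genes. In whole tissue, fewer cells of a type and less RNA per cell cannot be told apart.

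The untreated knockout colon had the lowest mean of the 4 groups for 32 of 32 members. Against untreated wild type, 29 of 32 members were lower in the knockout (limma, Benjamini-Hochberg adjusted p under 0.05 over all genes), none was higher and 3 (Mx2, Oas1a and Parp12) did not pass. Of all genes, 1.91% were called lower in that comparison. A member given below as lower or as having risen, without a p of its own, had an adjusted p under 0.05 in this fit. The median member was lower by 3.24-fold (median log2 change -1.69, range -4.24 in Oas2 to -0.37 in Parp12), where the median of all genes was 0. In 23 members no untreated knockout array reached any untreated wild-type array, which 2.18% of all genes did in the same direction. With only the 10 untreated arrays fitted, the median change was the same, and 13 of 32 members and 288 of all genes (from 879) were called.

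TNBS went with higher levels of these genes in the knockout colon. There 29 of 32 members were higher than in the untreated knockout, against 4.08% of all genes, none was lower, and Mx2, Parp12 and Ube2l6 did not pass. The median member was 2.43-fold higher (median log2 change 1.28, range 0.09 to 3.72). In 30 members every treated knockout array stood above every untreated one, against 1.97% of all genes. Both comparisons use the same 5 untreated knockout arrays, so they are not independent of each other. With the mean of the monocyte and macrophage markers as a covariate, added after seeing the data, the members' median log2 change was 1.37, while calls fell to 62 of all genes (from 1556) and to 6 of 32 members.

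**Figure D1:**
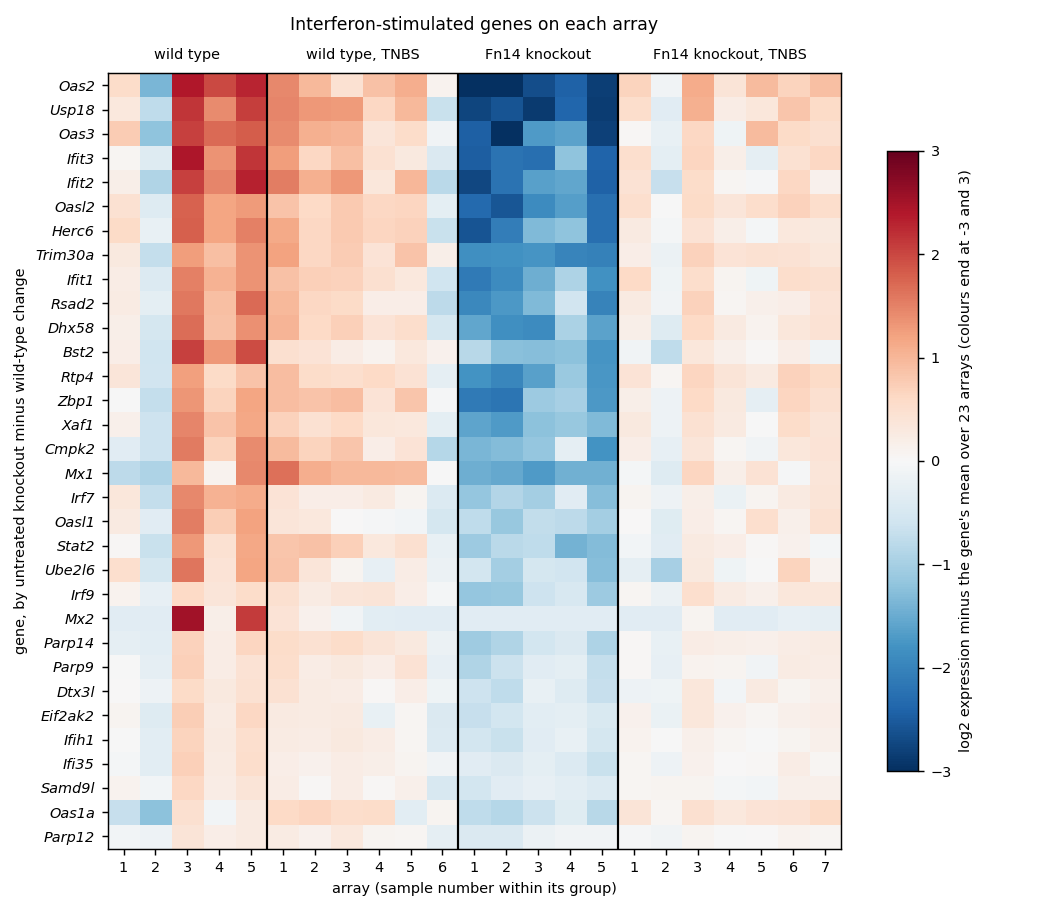
Heat map of the 32 measured members (rows) on the 23 arrays (columns, grouped by genotype and TNBS), with colour for the log2 value minus that gene's mean over all arrays. The 5 untreated knockout arrays are low in nearly all rows, and untreated wild-type array 2 is the lowest of its group in 32 of 32 members.

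The first role group senses viral RNA or acts on it through 2'-5' oligoadenylates and RNase L. It has 9 members: 8 fell and 1 did not pass in the untreated knockout, and 9 rose with TNBS in the knockout. Oas2 is an oligoadenylate synthetase that, on binding double-stranded RNA, makes the second messenger that activates RNase L, and it had the largest change of all members. Oas2 read 7.15, 5.23, 9.01, 8.58 and 8.88 on untreated wild-type arrays 1 to 5 and 2.75, 3.01, 3.95, 4.18 and 3.77 on untreated knockout arrays 1 to 5. Oas2 with TNBS had a lowest, median and highest value of 6.72, 7.53 and 8.05 in wild type and of 6.49, 7.28 and 7.71 in the knockout. For Oas2, every untreated knockout array was below every untreated wild-type array, and every treated knockout array was above every untreated one. Oas2 was 18.9-fold lower in the untreated knockout (log2 change -4.24, SE 0.53, adjusted p = 0.00019) and rose 13.2-fold with TNBS in the knockout (log2 change 3.72, SE 0.50, adjusted p = 0.00013). Oas3 is the large synthetase of the same family, with the response element core in the window printed above. Oas3 stood at 9.52, 7.57, 10.83, 10.48 and 10.58 on the untreated wild-type arrays and at 6.31, 5.51, 7.08, 7.17 and 5.98 on the untreated knockout arrays. Oas3 values with TNBS (lowest, median, highest) were 8.67, 9.56 and 10.18 in wild type and 8.54, 9.26 and 9.72 in the knockout. Oas3 did not overlap between the untreated genotypes, with the knockout low, and every treated knockout array was above every untreated one. Oas3 was 10.5-fold lower in the untreated knockout (log2 change -3.39, SE 0.49, adjusted p = 0.00074) and rose 6.47-fold with TNBS in the knockout (log2 change 2.69, SE 0.46, adjusted p = 0.0013). Oas1a is a small synthetase of the family and sits in a cluster of near copies on chromosome 5, whose transcripts may share its probes. Values of Oas1a were 10.23, 9.68, 11.40, 10.85 and 11.19 in untreated wild type and 10.15, 10.07, 10.27, 10.56 and 10.08 in the untreated knockout. TNBS arrays gave Oas1a 10.60, 11.47 and 11.56 (lowest, median, highest) in wild type and 10.98, 11.33 and 11.49 in the knockout. For Oas1a the untreated genotypes overlapped, and every treated knockout array was above every untreated one. Oas1a did not pass the test between the untreated genotypes (log2 change -0.44, SE 0.25, adjusted p = 0.38) and rose 2.11-fold with TNBS in the knockout (log2 change 1.08, SE 0.23, adjusted p = 0.0072). Oasl1 is a synthetase-like protein without synthetase activity that represses translation of Irf7 mRNA. For Oasl1 the untreated wild-type arrays gave 9.38, 8.77, 10.65, 9.86 and 10.32, and the untreated knockout arrays gave 8.36, 7.97, 8.38, 8.32 and 8.10. Oasl1 with TNBS had a lowest, median and highest value of 8.59, 9.11 and 9.47 in wild type and of 8.76, 9.26 and 9.61 in the knockout. Oasl1 fell 2.97-fold in the untreated knockout (with no overlap of arrays), and with TNBS it rose 2.04-fold (with no overlap). Oasl2 is a synthetase-like protein that keeps enzyme activity. Oasl2 read 9.87, 9.01, 11.17, 10.58 and 10.69 on untreated wild-type arrays 1 to 5 and 7.08, 6.83, 7.52, 7.74 and 7.13 on untreated knockout arrays 1 to 5. Oasl2 values with TNBS (lowest, median, highest) were 9.12, 10.03 and 10.26 in wild type and 9.39, 9.92 and 10.09 in the knockout. For Oasl2, every untreated knockout array was below every untreated wild-type array, and every treated knockout array was above every untreated one. Oasl2 was 8.02-fold lower in the untreated knockout (log2 change -3.0, SE 0.30, adjusted p = 1.6e-05) and rose 6.03-fold with TNBS in the knockout (log2 change 2.59, SE 0.28, adjusted p = 1.2e-05).

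The group also holds sensors and a kinase that act in the cytosol. Eif2ak2 (PKR) is a kinase that halts translation when it binds double-stranded RNA. Eif2ak2 read 9.88, 9.42, 10.55, 10.04 and 10.42 on untreated wild-type arrays 1 to 5 and 9.11, 9.26, 9.48, 9.50 and 9.34 on untreated knockout arrays 1 to 5. Eif2ak2 with TNBS had a lowest, median and highest value of 9.36, 9.96 and 10.08 in wild type and of 9.61, 9.94 and 10.14 in the knockout. Eif2ak2 was 1.65-fold lower in the untreated knockout, with some overlap of arrays, and rose 1.5-fold with TNBS there, with no overlap. Ifih1 (MDA5) detects long double-stranded RNA in the cytosol. Ifih1 stood at 10.77, 10.47, 11.44, 11.05 and 11.28 on the untreated wild-type arrays and at 10.23, 10.12, 10.45, 10.55 and 10.26 on the untreated knockout arrays. Ifih1 values with TNBS (lowest, median, highest) were 10.37, 10.99 and 11.08 in wild type and 10.77, 10.86 and 10.94 in the knockout. Ifih1 fell 1.6-fold in the untreated knockout (with some overlap of arrays), and with TNBS it rose 1.45-fold (with no overlap). Dhx58 (LGP2) is the relative of MDA5 and RIG-I that has no signalling domain. Values of Dhx58 were 7.61, 6.91, 9.12, 8.32 and 8.81 in untreated wild type and 5.88, 5.61, 5.56, 6.48 and 5.84 in the untreated knockout. TNBS arrays gave Dhx58 6.92, 8.01 and 8.45 (lowest, median, highest) in wild type and 7.05, 7.70 and 8.04 in the knockout. For Dhx58, every untreated knockout array was below every untreated wild-type array, and every treated knockout array was above every untreated one. Dhx58 was 4.85-fold lower in the untreated knockout (log2 change -2.28, SE 0.34, adjusted p = 0.001) and rose 3.45-fold with TNBS in the knockout (log2 change 1.79, SE 0.32, adjusted p = 0.0019). Zbp1 binds nucleic acid in the Z form and can trigger necroptosis. For Zbp1 the untreated wild-type arrays gave 9.19, 8.47, 10.52, 9.87 and 10.37, and the untreated knockout arrays gave 7.07, 7.0, 8.10, 8.20 and 7.47. Zbp1 with TNBS had a lowest, median and highest value of 9.17, 10.05 and 10.12 in wild type and of 8.92, 9.48 and 9.84 in the knockout. Zbp1 fell 4.34-fold in the untreated knockout (with no overlap of arrays), and with TNBS it rose 3.68-fold (with no overlap). For the genotype difference in the TNBS effect (knockout minus wild type, log2), the called members of this group were Oas2 (4.06, SE 0.71, adjusted p = 0.0076), Oas3 (3.0, SE 0.66, adjusted p = 0.022), Oasl1 (1.71, SE 0.35, adjusted p = 0.016), Oasl2 (2.92, SE 0.41, adjusted p = 0.0015) and Dhx58 (2.04, SE 0.46, adjusted p = 0.023). In all 5 the TNBS effect was the more positive in the knockout.

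**Figure D2:**
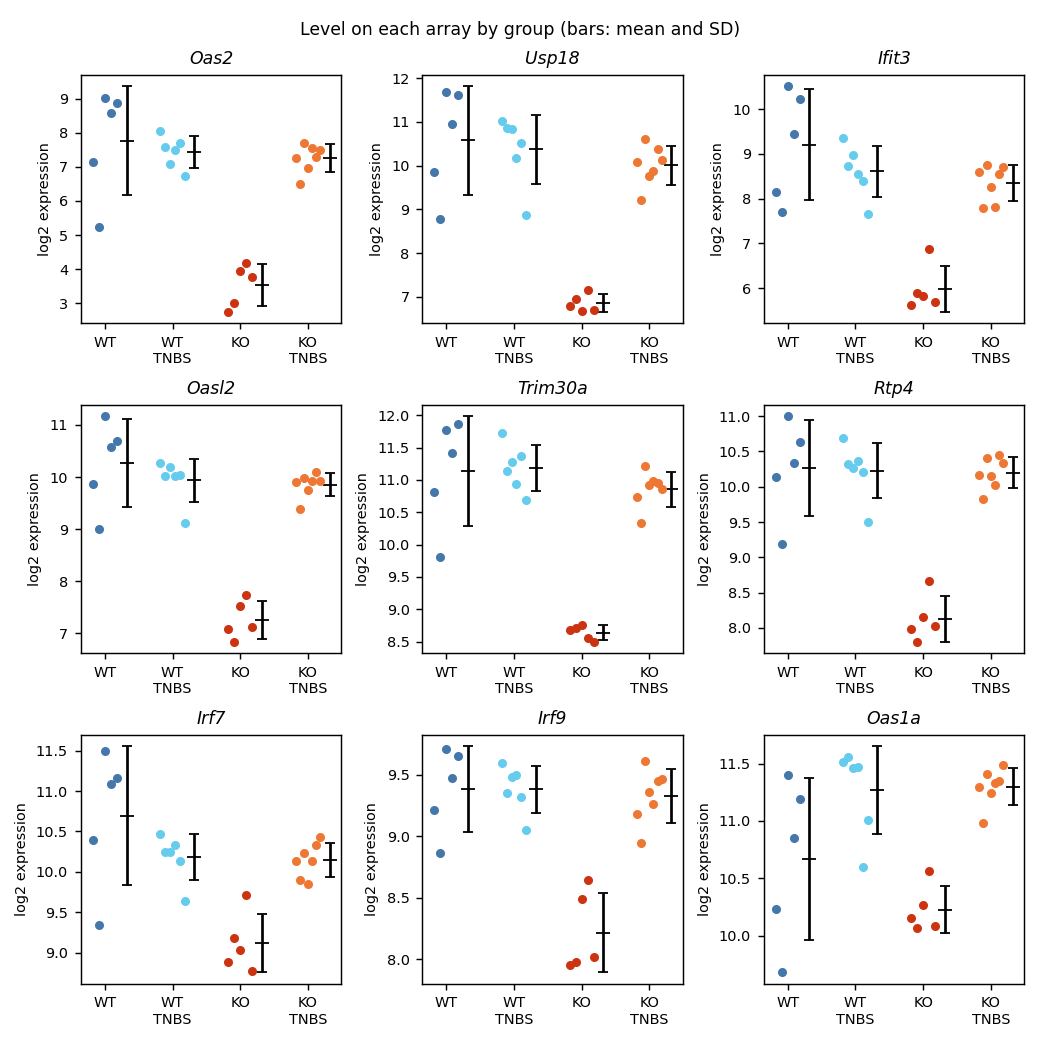
Log2 level of 9 members on each array in the 4 groups (points: arrays, bars: mean and SD). Oas2 shows the untreated knockout at 2.75 to 4.18 against 5.23 to 9.01 in untreated wild type, and Oas1a shows untreated groups that overlap.

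The second group acts on viral translation, replication or release. It has 9 members, of which 8 fell in the untreated knockout and 8 rose with TNBS in the knockout, with Mx2 passing neither test. Ifit1 binds viral RNA that lacks cap methylation and keeps it from being translated. Ifit1 read 10.52, 9.88, 11.81, 11.34 and 11.64 on untreated wild-type arrays 1 to 5 and 8.16, 8.39, 8.83, 9.35 and 8.48 on untreated knockout arrays 1 to 5. Ifit1 with TNBS had a lowest, median and highest value of 9.69, 10.88 and 11.16 in wild type and of 10.17, 10.77 and 10.88 in the knockout. For Ifit1, every untreated knockout array was below every untreated wild-type array, and every treated knockout array was above every untreated one. Ifit1 was 5.26-fold lower in the untreated knockout (log2 change -2.40, SE 0.34, adjusted p = 0.00055) and rose 3.81-fold with TNBS in the knockout (log2 change 1.93, SE 0.31, adjusted p = 0.00092). Ifit2 is a relative of Ifit1 that restricts viral replication in several tissues. Ifit2 stood at 9.82, 8.73, 11.69, 11.10 and 11.94 on the untreated wild-type arrays and at 6.92, 7.43, 8.0, 8.08 and 7.21 on the untreated knockout arrays. Ifit2 values with TNBS (lowest, median, highest) were 8.84, 10.67 and 11.18 in wild type and 8.94, 9.78 and 10.26 in the knockout. Ifit2 fell 8.73-fold in the untreated knockout (with no overlap of arrays), and with TNBS it rose 4.8-fold (with no overlap). Ifit3 is the third of the linked Ifit genes. Values of Ifit3 were 8.14, 7.71, 10.52, 9.44 and 10.23 in untreated wild type and 5.62, 5.88, 5.83, 6.88 and 5.69 in the untreated knockout. TNBS arrays gave Ifit3 7.65, 8.63 and 9.35 (lowest, median, highest) in wild type and 7.79, 8.54 and 8.74 in the knockout. For Ifit3, every untreated knockout array was below every untreated wild-type array, and every treated knockout array was above every untreated one. Ifit3 was 9.38-fold lower in the untreated knockout (log2 change -3.23, SE 0.45, adjusted p = 0.00052) and rose 5.17-fold with TNBS in the knockout (log2 change 2.37, SE 0.42, adjusted p = 0.0018). Rsad2 (viperin) is a radical enzyme that makes a chain-terminating nucleotide. For Rsad2 the untreated wild-type arrays gave 11.17, 10.63, 12.51, 11.83 and 12.62, and the untreated knockout arrays gave 8.99, 9.20, 9.60, 10.35 and 8.92. Rsad2 with TNBS had a lowest, median and highest value of 10.14, 11.31 and 11.91 in wild type and of 10.83, 11.13 and 11.62 in the knockout. Rsad2 fell 5.07-fold in the untreated knockout (with no overlap of arrays), and with TNBS it rose 3.38-fold (with no overlap).

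The effectors also include a nucleotide kinase, a GTPase and a tether of virions. Cmpk2 is a mitochondrial nucleotide kinase that supplies the substrate of viperin. Cmpk2 read 8.0, 7.73, 9.91, 9.03 and 9.77 on untreated wild-type arrays 1 to 5 and 6.99, 7.04, 7.20, 8.08 and 6.55 on untreated knockout arrays 1 to 5. Cmpk2 with TNBS had a lowest, median and highest value of 7.5, 8.89 and 9.31 in wild type and of 8.11, 8.55 and 8.75 in the knockout. Cmpk2 was 3.28-fold lower in the untreated knockout, with some overlap of arrays, and rose 2.5-fold with TNBS there, with no overlap. Mx1 encodes a dynamin-like GTPase, and RNA levels do not show whether these BALB/c mice make a working Mx1 protein. Mx1 stood at 8.22, 8.07, 9.98, 9.12 and 10.45 on the untreated wild-type arrays and at 7.53, 7.48, 7.31, 7.56 and 7.57 on the untreated knockout arrays. Mx1 values with TNBS (lowest, median, highest) were 9.0, 9.98 and 10.66 in wild type and 8.61, 9.19 and 9.64 in the knockout. Mx1 fell 3.19-fold in the untreated knockout (with no overlap of arrays), and with TNBS it rose 3.2-fold (with no overlap). Bst2 (tetherin) holds budding virions on the cell surface. Values of Bst2 were 7.16, 6.37, 9.03, 8.28 and 8.93 in untreated wild type and 6.13, 5.71, 5.70, 5.73 and 5.21 in the untreated knockout. TNBS arrays gave Bst2 7.07, 7.24 and 7.45 (lowest, median, highest) in wild type and 6.21, 7.01 and 7.31 in the knockout. For Bst2, every untreated knockout array was below every untreated wild-type array, and every treated knockout array was above every untreated one. Bst2 was 4.78-fold lower in the untreated knockout (log2 change -2.26, SE 0.37, adjusted p = 0.002) and rose 2.36-fold with TNBS in the knockout (log2 change 1.24, SE 0.34, adjusted p = 0.03). Samd9l restrains poxviruses and growth of some blood cells. For Samd9l the untreated wild-type arrays gave 11.54, 11.35, 12.06, 11.66 and 11.82, and the untreated knockout arrays gave 10.88, 11.09, 11.18, 11.11 and 11.02. Samd9l with TNBS had a lowest, median and highest value of 10.94, 11.52 and 11.66 in wild type and of 11.35, 11.51 and 11.59 in the knockout. Samd9l fell 1.55-fold in the untreated knockout (with no overlap of arrays), and with TNBS it rose 1.35-fold (with no overlap). Mx2, the cytoplasmic relative of Mx1, lay near the lowest possible value: it read 2.18, 2.17, 5.04, 2.69 and 4.62 in untreated wild type and 2.17 on all 5 untreated knockout arrays. Its highest TNBS values were 2.93 in wild type and 2.59 in the knockout, so a fold of Mx2 has little meaning here. The difference of the TNBS effects was called for Ifit1 (2.26, SE 0.45, adjusted p = 0.014), Ifit3 (2.97, SE 0.60, adjusted p = 0.015), Rsad2 (2.29, SE 0.49, adjusted p = 0.018), Bst2 (1.95, SE 0.49, adjusted p = 0.046) and Samd9l (0.66, SE 0.17, adjusted p = 0.045).

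ISG15 is a ubiquitin-like protein that is attached to newly made proteins. Of the genes that attach or remove it, 3 were measured: 3 fell in the untreated knockout, and Usp18 and Herc6 rose with TNBS there. Usp18 removes ISG15 and binds Ifnar2 to damp receptor signalling. Usp18 read 9.85, 8.78, 11.69, 10.95 and 11.62 on untreated wild-type arrays 1 to 5 and 6.79, 6.96, 6.67, 7.16 and 6.70 on untreated knockout arrays 1 to 5. Usp18 with TNBS had a lowest, median and highest value of 8.88, 10.67 and 11.01 in wild type and of 9.21, 10.08 and 10.62 in the knockout. For Usp18, every untreated knockout array was below every untreated wild-type array, and every treated knockout array was above every untreated one. Usp18 was 13.2-fold lower in the untreated knockout (log2 change -3.72, SE 0.47, adjusted p = 0.00019) and rose 8.88-fold with TNBS in the knockout (log2 change 3.15, SE 0.44, adjusted p = 0.00021). Herc6 is the main mouse ligase for ISG15. Herc6 stood at 8.60, 7.82, 9.84, 9.22 and 9.55 on the untreated wild-type arrays and at 5.44, 5.97, 6.71, 6.84 and 5.78 on the untreated knockout arrays. Herc6 values with TNBS (lowest, median, highest) were 7.38, 8.71 and 9.17 in wild type and 7.99, 8.31 and 8.46 in the knockout. Herc6 fell 7.25-fold in the untreated knockout (with no overlap of arrays), and with TNBS it rose 4.25-fold (with no overlap). Ube2l6 (UBCH8) is the conjugating enzyme for ISG15, and its probe set lay within a few log2 units of the lowest value. Values of Ube2l6 were 4.01, 2.96, 5.10, 3.90 and 4.69 in untreated wild type and 2.95, 2.47, 2.98, 2.92 and 2.21 in the untreated knockout. TNBS arrays gave Ube2l6 3.26, 3.65 and 4.35 (lowest, median, highest) in wild type and 2.50, 3.48 and 4.17 in the knockout. For Ube2l6 the untreated genotypes overlapped, and the treated and untreated knockout arrays overlapped. Ube2l6 was 2.69-fold lower in the untreated knockout (log2 change -1.43, SE 0.34, adjusted p = 0.021) and did not pass the test for TNBS in the knockout (log2 change 0.74, SE 0.31, adjusted p = 0.16). The TNBS effects differed between genotypes for Usp18 (3.35, SE 0.63, adjusted p = 0.01) and Herc6 (2.52, SE 0.47, adjusted p = 0.01).

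The measured transcription factors of the response are 3. All 3 fell in the untreated knockout, with a median log2 change of -1.54, and all 3 rose with TNBS in the knockout. Irf7 drives the production of most interferon alpha subtypes and is itself induced by ISGF3. Irf7 read 10.39, 9.34, 11.50, 11.09 and 11.16 on untreated wild-type arrays 1 to 5 and 8.89, 9.18, 9.04, 9.71 and 8.78 on untreated knockout arrays 1 to 5. Irf7 with TNBS had a lowest, median and highest value of 9.64, 10.25 and 10.47 in wild type and of 9.85, 10.14 and 10.43 in the knockout. For Irf7 the untreated genotypes overlapped, and every treated knockout array was above every untreated one. Irf7 was 2.99-fold lower in the untreated knockout (log2 change -1.58, SE 0.29, adjusted p = 0.0041) and rose 2.04-fold with TNBS in the knockout (log2 change 1.03, SE 0.27, adjusted p = 0.022). Irf9 is the DNA-binding part of ISGF3. Irf9 stood at 9.21, 8.86, 9.71, 9.47 and 9.65 on the untreated wild-type arrays and at 7.95, 7.98, 8.49, 8.64 and 8.02 on the untreated knockout arrays. Irf9 values with TNBS (lowest, median, highest) were 9.05, 9.41 and 9.59 in wild type and 8.94, 9.36 and 9.61 in the knockout. Irf9 did not overlap between the untreated genotypes, with the knockout low, and every treated knockout array was above every untreated one. Irf9 was 2.24-fold lower in the untreated knockout (log2 change -1.17, SE 0.17, adjusted p = 0.00074) and rose 2.16-fold with TNBS in the knockout (log2 change 1.11, SE 0.16, adjusted p = 0.00026). Stat2 is the partner of Irf9 in ISGF3. Values of Stat2 were 7.98, 7.27, 9.26, 8.40 and 9.12 in untreated wild type and 6.85, 7.13, 7.18, 6.54 and 6.64 in the untreated knockout. TNBS arrays gave Stat2 7.73, 8.55 and 8.82 (lowest, median, highest) in wild type and 7.60, 7.99 and 8.21 in the knockout. Stat2 was 2.9-fold lower in the untreated knockout, with no overlap of arrays, and rose 2.14-fold with TNBS there, with no overlap. The difference of the TNBS effects was called for Irf7 (1.54, SE 0.39, adjusted p = 0.044) and Irf9 (1.11, SE 0.23, adjusted p = 0.015) and not for Stat2 (1.06, SE 0.39, adjusted p = 0.17).

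Parp9, Parp12 and Parp14 transfer ADP-ribose or bind it, and Dtx3l is the ubiquitin ligase that pairs with Parp9. Their median log2 change between the untreated genotypes, -0.79, was the nearest to zero of the role groups. Of the 4, 3 fell in the untreated knockout and 3 rose with TNBS there. Parp14 adds single ADP-ribose units and acts in interferon and interleukin-4 signalling. Parp14 read 10.33, 10.29, 11.28, 10.82 and 11.25 on untreated wild-type arrays 1 to 5 and 9.52, 9.69, 10.04, 10.17 and 9.66 on untreated knockout arrays 1 to 5. Parp14 with TNBS had a lowest, median and highest value of 10.43, 11.03 and 11.15 in wild type and of 10.37, 10.77 and 10.83 in the knockout. For Parp14, every untreated knockout array was below every untreated wild-type array, and every treated knockout array was above every untreated one. Parp14 was 1.97-fold lower in the untreated knockout (log2 change -0.98, SE 0.19, adjusted p = 0.006) and rose 1.86-fold with TNBS in the knockout (log2 change 0.89, SE 0.17, adjusted p = 0.004). Parp9 has little enzyme activity of its own and works with Dtx3l. Parp9 stood at 10.0, 9.74, 10.74, 10.24 and 10.46 on the untreated wild-type arrays and at 9.11, 9.38, 9.68, 9.72 and 9.30 on the untreated knockout arrays. Parp9 values with TNBS (lowest, median, highest) were 9.77, 10.27 and 10.55 in wild type and 9.78, 10.11 and 10.26 in the knockout. Parp9 fell 1.74-fold in the untreated knockout (with no overlap of arrays), and with TNBS it rose 1.55-fold (with no overlap). Dtx3l shares a divergent promoter with Parp9. Values of Dtx3l were 11.89, 11.73, 12.46, 12.17 and 12.33 in untreated wild type and 11.25, 11.11, 11.65, 11.50 and 11.19 in the untreated knockout. TNBS arrays gave Dtx3l 11.76, 12.09 and 12.33 (lowest, median, highest) in wild type and 11.72, 11.97 and 12.21 in the knockout. Dtx3l was 1.71-fold lower in the untreated knockout, with no overlap of arrays, and rose 1.52-fold with TNBS there, with no overlap. Parp12, which adds single ADP-ribose units and blocks viral replication, changed by -0.37 (SE 0.11, adjusted p = 0.053) between the untreated genotypes and by 0.26 (SE 0.10, adjusted p = 0.11) with TNBS in the knockout. No member of this group was called for the difference of the TNBS effects, where their log2 values ran from 0.29 to 0.74.

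The remaining members have other or less settled roles. All 4 fell in the untreated knockout and all 4 rose with TNBS in the knockout. Trim30a is a mouse TRIM protein that restrains Toll-like receptor signalling. Trim30a read 10.81, 9.80, 11.77, 11.42 and 11.87 on untreated wild-type arrays 1 to 5 and 8.68, 8.71, 8.76, 8.55 and 8.49 on untreated knockout arrays 1 to 5. Trim30a with TNBS had a lowest, median and highest value of 10.69, 11.21 and 11.72 in wild type and of 10.34, 10.92 and 11.21 in the knockout. For Trim30a, every untreated knockout array was below every untreated wild-type array, and every treated knockout array was above every untreated one. Trim30a was 5.64-fold lower in the untreated knockout (log2 change -2.50, SE 0.29, adjusted p = 6.7e-05) and rose 4.66-fold with TNBS in the knockout (log2 change 2.22, SE 0.27, adjusted p = 4.3e-05). Rtp4 helps receptors reach the cell surface and limits interferon responses and flaviviruses. Rtp4 stood at 10.14, 9.19, 11.0, 10.34 and 10.63 on the untreated wild-type arrays and at 7.98, 7.80, 8.15, 8.66 and 8.03 on the untreated knockout arrays. Rtp4 values with TNBS (lowest, median, highest) were 9.50, 10.29 and 10.69 in wild type and 9.83, 10.17 and 10.45 in the knockout. Rtp4 did not overlap between the untreated genotypes, with the knockout low, and every treated knockout array was above every untreated one. Rtp4 was 4.4-fold lower in the untreated knockout (log2 change -2.14, SE 0.26, adjusted p = 0.00014) and rose 4.22-fold with TNBS in the knockout (log2 change 2.08, SE 0.24, adjusted p = 3.4e-05). Xaf1 counteracts XIAP and favours cell death. Values of Xaf1 were 10.13, 9.37, 11.45, 10.84 and 11.15 in untreated wild type and 8.41, 8.28, 8.74, 8.85 and 8.66 in the untreated knockout. TNBS arrays gave Xaf1 9.70, 10.39 and 10.68 (lowest, median, highest) in wild type and 9.83, 10.27 and 10.54 in the knockout. Xaf1 was 4.01-fold lower in the untreated knockout, with no overlap of arrays, and rose 3.14-fold with TNBS there, with no overlap. Ifi35 pairs with the protein Nmi. For Ifi35 the untreated wild-type arrays gave 11.61, 11.35, 12.37, 11.91 and 12.18, and the untreated knockout arrays gave 11.32, 11.22, 11.36, 11.25 and 11.0. Ifi35 with TNBS had a lowest, median and highest value of 11.55, 11.81 and 11.88 in wild type and of 11.51, 11.71 and 11.87 in the knockout. Ifi35 fell 1.57-fold in the untreated knockout (with some overlap of arrays), and with TNBS it rose 1.39-fold (with no overlap). The TNBS effects differed between genotypes for Trim30a (2.16, SE 0.38, adjusted p = 0.0077), Rtp4 (2.11, SE 0.35, adjusted p = 0.0051) and Xaf1 (1.91, SE 0.38, adjusted p = 0.015).

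**Figure D3:**
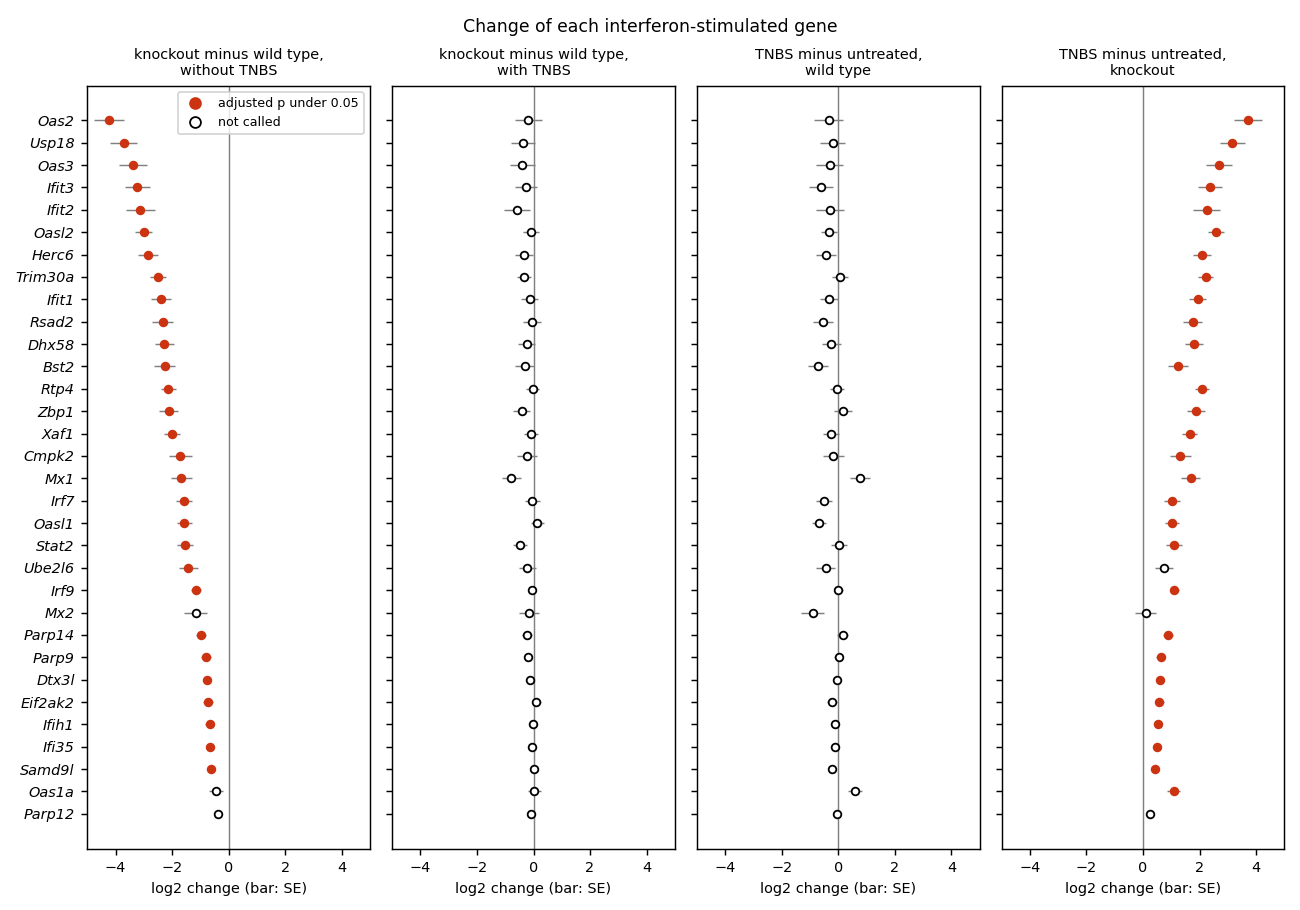
Log2 change (points) and SE (bars) of the 32 measured members in 4 comparisons, with filled points for adjusted p under 0.05, ordered by the untreated genotype difference. In the panels without TNBS for genotype and in the knockout for TNBS, 29 of 32 points are filled, and in the other panels 0 are filled.

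In wild-type colon TNBS went with no called change of these genes. None of the 32 members was called in either direction, although 10.2% of all genes were called higher and 6.27% lower. At an unadjusted p under 0.05, 4 members passed (12.5%, against 27.5% of all genes). The median log2 change was -0.23, from -0.91 in Mx2 to 0.78 in Mx1 (SE 0.35, adjusted p = 0.15). The 95% intervals, with a median half-width of 0.60, reached from -1.74 to 1.52 over the members, and 17 of 32 lay within 1 log2 unit of zero. They rest on a spread shared by all groups, although the members' median SD was largest in untreated wild type. Centring each array on its median shifted the median of all genes by -0.17 and called 11471 genes, of which 11.2% were higher, and 5 members, all lower. Without untreated wild-type array 2, 4 members and 2444 genes in all were called, the members lower, and without array 1, 1 member (lower) and 2250 genes. Leaving out untreated array 3, untreated array 5 or TNBS array 5 of wild type called 1 member higher, among 2806, 2806 and 2537 genes.

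With TNBS, 0 of 32 members were called between the genotypes, where 3.73% of all genes were called higher in the knockout and 6.72% lower. At an unadjusted p under 0.05 there was 1 member (3.12%, against 23.1% of all genes), Mx1, lower by 0.78 on the log2 scale (SE 0.32, adjusted p = 0.15). The median log2 change was -0.17, ending at 0.13 in Oasl1. The 95% interval of 24 of 32 members lay within 1 log2 unit of zero. For Ifih1 it ran from -0.30 to 0.25 and for Samd9l from -0.20 to 0.26, while for Oas2 it ran from -1.16 to 0.80. A failed test does not show equal levels. The intervals rest on a spread shared by all groups, so they also carry that of untreated wild type, which is not compared here. For Oas2 the SD with TNBS was 0.47 in wild type and 0.41 in the knockout, against 1.6 in untreated wild type.

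The genotype difference in the TNBS effect was positive in 32 of 32 members, and 17 were called, against 0.621% of all genes called in that direction. Its median was 1.62 and its range 0.29 in Parp12 to 4.06 in Oas2. The 15 members that did not pass include Ifit2 (2.54, SE 0.69, adjusted p = 0.062), Zbp1 (1.71, SE 0.46, adjusted p = 0.057) and Dtx3l (0.67, SE 0.19, adjusted p = 0.073). The count rested on single wild-type arrays: it was 14 without untreated wild-type array 3, with 353 genes called in all, and 24 without array 2, with 344. Bst2, Irf7 and Samd9l lost their call in 24, 22 and 19 of the refits (12 alternatives and 23 with an array left out). Averaging all probe sets of a gene gave a median of 1.15. The difference uses all 4 groups and so shares arrays with each comparison above.

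In the members, untreated wild-type arrays differed from each other more than the arrays of any other group. The mean of the 32 members on the 5 arrays was 9.29, 8.64, 10.55, 9.91 and 10.39. Array 2 was the lowest in 32 of 32 members, and the highest value lay on array 3 in 28 members and on array 5 in 4. The median SD of a member was 0.832 in untreated wild type, 0.384 with TNBS, 0.306 in the untreated knockout and 0.237 in the treated knockout. Genes with a mean above log2 5 (10776 genes) did not show this order. Their median SDs were 0.133, 0.14, 0.147 and 0.143 in the same groups, with untreated wild type the lowest. The order is not particular to the members: Gbp3, an interferon gamma target, had SDs of 0.83, 0.5, 0.4 and 0.22. Ifi207, another interferon-stimulated gene, did not show it (0.18, 0.33, 0.3 and 0.43). How many related genes show it was not counted.

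The other groups held a low or high array too. Wild-type TNBS array 6 had the lowest value of its group in 29 members, with a mean of 8.88 against 9.49 to 9.98 on the other 5. Knockout TNBS array 2 was the lowest in 26 members (mean 8.95, others 9.30 to 9.62). In the untreated knockout the means were 7.72, 7.72, 8.06, 8.26 and 7.72, with array 4 the highest in 22 members. No untreated knockout array mean reached that of untreated wild-type array 2. The treated knockout mean lay between the untreated knockout and untreated wild-type means in 30 of 32 members, with Oas1a above untreated wild type and Mx1 level with it (9.17 in both). Wild type without TNBS had the highest mean of the groups in 25 members, wild type with TNBS in 6 and the treated knockout in 1.

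Within groups most members moved together. After each group's mean was taken off, a member's deviations over the 23 arrays correlated with the mean of the other members at a median r of 0.916, from 0.786 in Mx2 to 0.970 in Xaf1. Over the 18 arrays outside untreated wild type the median was 0.844, with Bst2 lowest at 0.475. Group by group the median was 0.986 in untreated wild type, 0.941 with TNBS, 0.831 in the untreated knockout and 0.86 in the treated knockout. The lowest r was -0.289 for Stat2 in the untreated knockout and 0.307 for Samd9l in the treated knockout. These correlations are descriptions: the points share arrays, and with them depth of labelling and tissue makeup. Members with a larger difference between the untreated genotypes also had a larger SD among wild-type TNBS arrays (r = 0.698, rho = 0.743 across 32 genes) and among knockout TNBS arrays (r = 0.735, rho = 0.782), groups which that difference does not use.

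Further probe sets gave the same directions. Of the 32 members, 13 have more than 1 probe set, 19 further ones in all, and 13 of these had a mean above log2 5. All 13 were below zero between the untreated genotypes (-3.32 to -0.79, 11 called) and all 13 above zero for TNBS in the knockout (0.47 to 2.82, 10 called). They read the same RNA samples and are not replicates. Probe sets of the Oas and Ifit families can bind transcripts of close relatives, so a value may belong to several genes of a family.

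Genes around the members were read from lists of the pathway. Of 49 measured other interferon-stimulated genes, 25 were lower in the untreated knockout (1.91% of all genes) and 24 rose with TNBS there (4.08% of all genes). Ddx60, a helicase that aids RNA sensing, was lower by 2.48 (SE 0.34, adjusted p = 0.00049), Phf11d by 2.19 (SE 0.32, adjusted p = 0.00074) and the lectin Lgals9 by 1.56 (SE 0.24, adjusted p = 0.001), all on the log2 scale. In wild type 8 of the 49 rose with TNBS and 5 fell, where 10.2% of all genes were called higher and 6.27% lower. Ifitm1, which hinders viral entry, rose there by 1.63 (SE 0.19, adjusted p = 7e-06), and it was lower in the knockout with TNBS by 0.89 (SE 0.17, adjusted p = 0.0024).

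Interferon gamma targets were read as a list of their own. Of 19 measured, 8 rose with TNBS in wild type and 12 in the knockout, and 7 were lower in the untreated knockout. The shares of all genes in these comparisons were 10.2%, 4.08% and 1.91%. Cxcl10, a chemokine for T cells, rose by 2.01 (SE 0.29, adjusted p = 9.8e-05) in wild type and by 2.05 (SE 0.28, adjusted p = 0.00021) in the knockout on the log2 scale. Cxcl9, its relative, was lower by 1.75 (SE 0.36, adjusted p = 0.0096) in the untreated knockout. For the difference of the TNBS effects limma called 0 of 19 gamma targets, against 363 of all 18194 genes. At an unadjusted p under 0.05 there were 6, where 15.7% of all genes passed. Whether the lists differ from the members was not tested.

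Between the untreated genotypes limma called 0 of 11 ligands and receptors and 0 of 12 signalling genes, where 1 and 3 had an unadjusted p under 0.05. Of all 18194 genes 879 were called, and 18.8% had an unadjusted p under 0.05. Ifnb1, Ifna1, Ifna2 and Ifna4 stood at the lowest value, 2.17, on all arrays, and Ifng averaged 2.17 to 2.28, so these arrays give no level for the ligands. Ifnar1, the first receptor chain, averaged 7.82 in untreated wild type and 7.80 in the untreated knockout. Ifnar2, the second chain, rose by 0.84 (SE 0.12, adjusted p = 0.0001) with TNBS in wild type. Among sensors that feed interferon production, 3 of 15 were lower in the untreated knockout, against 1.91% of all genes. By limma these were Ddx58 (RIG-I) by 1.34 (SE 0.25, adjusted p = 0.0039), Adar by 0.60 (SE 0.12, adjusted p = 0.0088) and Tlr3 by 0.43 (SE 0.12, adjusted p = 0.038). Ddx58 and Adar are themselves interferon-stimulated.

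**Figure D4:**
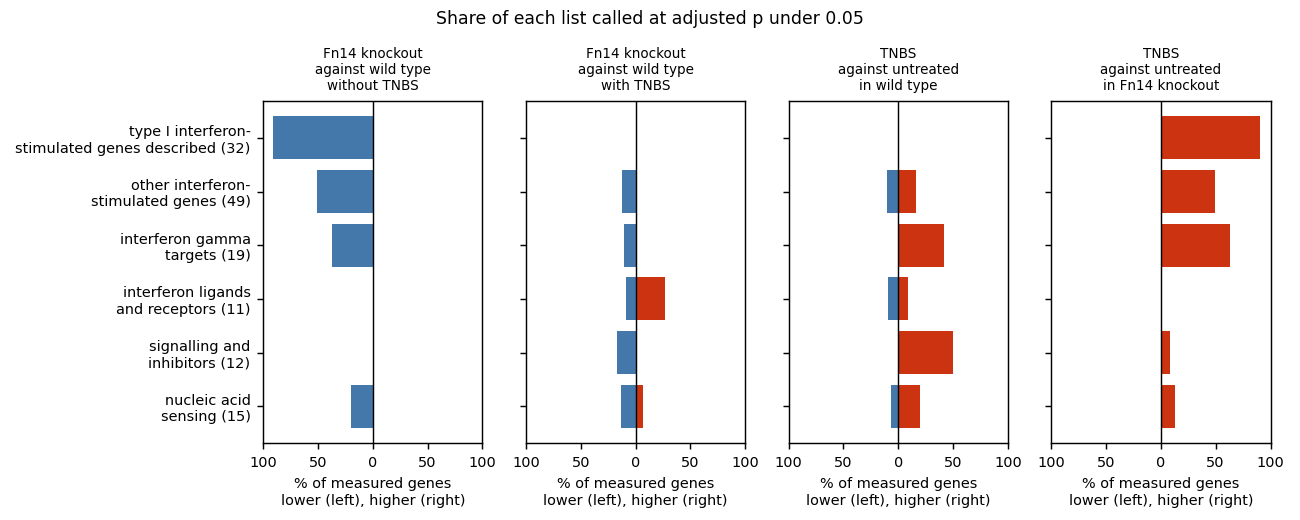
Percent of the measured genes of each list (bars; number of genes in brackets) called lower (left, blue) or higher (right, red) at adjusted p under 0.05 in 4 comparisons. The described genes fill most of the first and last panels and have no bar in the others. With TNBS in wild type, 8 of 19 interferon gamma targets were called higher, against 10.2% of all genes.

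Markers of cells that could carry these genes were read beside the results. Of the plasmacytoid dendritic cell markers, from a cell type known for interferon production, Siglech averaged 2.57 in untreated wild type and 2.73 in the untreated knockout, Pacsin1 2.76 and 2.74, and Ccr9 3.09 and 2.98. These lie near the lowest value, and others of the list (Klk1, Atp1b1, Tcf4) are abundant in whole colon, so the list gives no reading of this cell type. Monocyte and macrophage markers averaged 7.75 ± 0.10 (SD, n = 5; summed level 99.2 to 102.3) and 7.26 ± 0.31 (SD, n = 5; 90.1 to 99.6), with 11 of 13 below zero (median log2 change -0.56), 9 at an unadjusted p under 0.05 and 1 called lower (Fcgr1). With TNBS they averaged 8.74 ± 0.23 (SD, n = 6) in wild type and 8.02 ± 0.34 (SD, n = 7) in the knockout, and 10 and 8 of 13 markers rose. Of all genes, 10.2% rose with TNBS in wild type and 4.08% in the knockout. No member was called with TNBS in wild type. In the knockout 29 of 32 were called, and 6 with the mean of these markers as a covariate. That covariate also lowered the calls among all genes from 1556 to 62, and the members' median change with it, given above, did not fall. T cell markers averaged 4.90 ± 0.17 (SD, n = 5; summed level 46.6 to 51.3) in untreated wild type and 4.41 ± 0.31 (SD, n = 5; 41.7 to 47.9) in the untreated knockout, with 10 of 10 below zero, 5 at an unadjusted p under 0.05 and 0 called by limma. With TNBS 8 of 10 rose in wild type and 7 in the knockout (5.30 ± 0.36, SD, n = 7; 47.3 to 57.8). Squamous epithelium markers averaged 4.22 ± 1.46 (SD, n = 5; summed level 22.4 to 49.4) in the untreated knockout and 6.61 ± 1.63 (SD, n = 7; 34.2 to 65.1) in the knockout with TNBS, and 2 of 8 rose (Krt14 and Lor). Of B cell markers 2 of 7 rose with TNBS in the knockout. The macrophage markers entered a fit only as the covariate given above. The part of the macrophage, T cell, B cell and squamous markers in the members' differences was not tested.

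Skeletal muscle markers, which mark muscle that adjoins the colon, averaged 4.0 ± 0.96 (SD, n = 5; summed level 24.4 to 40.8) in untreated wild type and 7.05 ± 1.19 (SD, n = 5; 46.3 to 68.3) in the untreated knockout. Of 8 such markers 3 were called higher there (Acta1, Tnnt3 and Tnni2), and none stood at the lowest value on all arrays. Of all 18194 genes 879 were called in that comparison, 60.4% of them higher. With their mean as a covariate, added after seeing the data, the members' median log2 change between the untreated genotypes was -1.68 (-1.69 without it), while calls fell to 75 of all genes (from 879) and to 13 of 32 members. The Gapdh 3' minus 5' signal, a sign of RNA integrity, was 1.04 ± 0.036 (SD, n = 5) in untreated wild type, 1.02 ± 0.050 (SD, n = 5) in the untreated knockout, 1.06 ± 0.072 (SD, n = 6) with TNBS in wild type and 0.943 ± 0.031 (SD, n = 7) with TNBS in the knockout. With this signal as a covariate the members' median log2 change for TNBS in the knockout was 1.39, with 24 members and 813 genes called.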

How the data were processed

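Values for 45101 probe sets on 23 arrays were used as the authors deposited them, on a log2 scale. Per the submitters' processing notes, RMA and GCRMA were used. The sources used here do not tell which one, in what version, gave the deposited values. The platform annotation gave 1 gene for 34958 probe sets, several for 932 and none for 9211, and 34754 matched genes of GRCm38.p6. Depth does not apply to arrays, and their number limits the precision.

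Each of 18194 genes was read from 1 probe set, the brightest on average. With limma (lmFit, eBayes), group means were estimated from all arrays jointly (19 residual and 0.475 prior degrees of freedom). The fit takes a gene's spread as equal in all groups, although the members' SDs differed between groups. The 5 contrasts were adjusted over all genes (Benjamini-Hochberg, threshold 0.05). The procedure was tested on simulated data in which genes varied independently and a gene had the same spread in every group. The members do not meet these settings, so the simulation does not vouch for their calls. The members and lists were chosen with earlier results of these data known. Members called in a comparison of 2 groups were described array by array, and up to 4 called genes of each pathway list could be named. Alternatives were fit options, filters, scaling, probe set choice, a replicate block, each array left out and, chosen after seeing the data, 3 covariates. Same-numbered arrays of different groups deviated from their group means with r of -0.46 to 0.431, so the numbers were not taken as pairs. R 4.3.3, limma 3.58.1, version 1.17.8 of data.table, Python 3.11.15 and matplotlib 3.10.9 were used.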

Additional observations from a re-analysis of the deposited data

Results flagged for a closer look

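Single arrays stood apart from their group for 9 of 127 combinations of a member and a group (7.09%, where chance gives about 1 in 20), by the gap to the nearest array relative to the group's range. Of these, 6 were low values on wild-type TNBS array 6: Oasl2 at 9.12 (nearest array 10.01), Ifit1 at 9.69 (10.61), Ifih1 at 10.37 (10.84), Parp14 at 10.43 (10.88), Herc6 at 7.38 (8.66) and Samd9l at 10.94 (11.46). Ifit3 read 6.88 on untreated knockout array 4, where the nearest array read 5.88. Mx2 read 2.59 on knockout TNBS array 3 (nearest 2.27), close to the lowest possible value. Bst2 read 6.21 on knockout TNBS array 2 (nearest 6.86).

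In the main fit the TNBS effect was called as different between the genotypes for 17 members, by the log2 difference of the effects (knockout minus wild type). The calls of Bst2, Irf7 and Samd9l were lost in most refits (24, 22 and 19, among 12 alternatives and 23 with an array left out). The 17 members were Oas2 (4.06), Usp18 (3.35), Oas3 (3.0), Ifit3 (2.97), Oasl2 (2.92), Herc6 (2.52), Rsad2 (2.29), Ifit1 (2.26), Trim30a (2.16), Rtp4 (2.11), Dhx58 (2.04), Bst2 (1.95), Xaf1 (1.91), Oasl1 (1.71), Irf7 (1.54), Irf9 (1.11) and Samd9l (0.66).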

How the results depend on the processing

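No value that passed the test reversed its direction under an alternative. For TNBS in wild type, members called lower were 1 with dim probe sets left out and 5 with centring, and all genes called went from 2998 to 11471 with centring and to 80 with the macrophage marker covariate. For TNBS in the knockout, the macrophage covariate called 6 members and 62 genes (from 1556), the compared groups alone 856 genes and the Gapdh covariate 813. Between the untreated genotypes the compared groups alone called 13 members and 288 genes (from 879), the skeletal muscle covariate 13 members and 75 genes, and the macrophage covariate 354 genes. With TNBS, genes called between genotypes went from 1902 to 92 with the macrophage covariate and 738 with the Gapdh covariate. For the difference of the TNBS effects centring called 547 genes (from 363) and 23 members, and the mean of all probe sets gave a median of 1.15. The cause was not tested. With the replicate block, genes called were 1230 between the genotypes with TNBS and 172 for the difference of the effects, where 12 members were called. The block changed no other count of members or genes by over 1.5 times. Centring shifted the median of all genes by -0.17 for TNBS in wild type and by 0.14 for the difference of the effects. The percent of called genes that were higher went with centring from 62.0 to 11.2 for TNBS in wild type, from 60.4 to 33.7 between the untreated genotypes (49.7 with quantile normalization), from 35.7 to 70.1 with TNBS, and from 31.1 to 80.6 for the difference (41.6 with quantile normalization).

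Leaving out each of the 23 arrays in turn gave 0 to 1 members called higher and 0 to 4 lower for TNBS in wild type, with medians of -0.51 to -0.01 and 2250 to 3158 genes. For TNBS in the knockout it gave 23 to 29 members, medians of 1.14 to 1.40 and 1014 to 1835 genes, the lowest without untreated knockout array 3. Between the untreated genotypes it gave 26 to 31 members, medians of -1.98 to -1.46 and 458 to 1021 genes, with 458 without untreated wild-type array 1 and 484 without untreated knockout array 4. With TNBS the genotypes' median was -0.30 to -0.06, with 1391 to 2106 genes. The difference of the effects gave 14 to 24 members, medians of 1.42 to 1.92 and 213 to 443 genes, with 213 without untreated knockout array 4 and 238 without untreated wild-type array 1. Values near the lowest value carry no order, and Mx2 and Ube2l6 are the members whose means lie below log2 5.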

Other observations

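Genes outside the list that followed the members from array to array within groups were looked for among 10746 genes with a mean above log2 5. After group means were taken off, 48 of them (0.447%) correlated with the mean of the members at r over 0.8 over 23 arrays, and 0 lay below -0.8. Of the 48, 36 were called lower in the untreated knockout, against 1.91% of all genes. The guanylate-binding protein Gbp3 came first (r = 0.956), followed by Ifi44l (r = 0.943), the large ubiquitin ligase Rnf213 (r = 0.934), the lectin Lgals9 (r = 0.917), Uba7 (r = 0.916), the activating enzyme for ISG15, and the GTPases Irgm1 (r = 0.914) and Irgm2 (r = 0.913). Ifi44l was lower by 3.75 on the log2 scale in the untreated knockout (limma, adjusted p = 0.00074) and Uba7 by 0.60 (adjusted p = 0.032). These correlations are descriptions over arrays that share tissue makeup and labelling, and nothing is said here of shared control.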
